A study of Mus musculus with 3 samples.

Results

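Genomic imprinting leaves 1 parental copy of a gene active and the other silent, and many imprinted genes set the growth of the embryo and of fetal tissues. In mouse liver several of them are known to be active before birth and to be shut down soon after it. Paternally expressed genes of this kind tend to promote growth, as the fetal growth factor IGF2 does, and maternally expressed ones tend to restrain it, as the IGF2 receptor that clears the factor and the adaptor GRB10 do. Here 10 imprinted growth genes were followed across 3 arrays of mouse cells. Of these, 4 are maternally expressed (Meg3, H19, Grb10, Igf2r) and 6 paternally expressed (Dlk1, Igf2, Peg3, Plagl1, Mest, Ndn). They were found by matching the transcript accession of each probe to a gene symbol, which gave 18 probes for 9 of the 10 genes among 20577 genes with a matched probe. No probe matched H19, and it was not analysed here. The parent of origin is textbook knowledge, since the arrays read the RNA of both alleles together. It also depends on tissue, and Grb10 is known to be expressed from the paternal copy in neurons.

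The iHep group were hepatocyte-like cells, made by giving primary fibroblasts of SiO2-remodelled mouse spleen the lentivirus LV-3TF, with 14 days of culture afterwards. The PH group were freshly isolated mouse hepatocytes. The MF group were the same spleen fibroblasts with LV-NC, collected at the same time after transduction. All samples were labelled female, 5 samples were pooled for each group, and each pool was read on 1 one-colour array, so no test and no spread between animals can be given. The iHep and PH arrays carried the same scan label and MF another, so in any comparison with MF the scan and the cells cannot be told apart.

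Levels below are log2 of the processed intensity minus the 75th percentile of that array, which was 3752 on iHep, 2081 on PH and 544.3 on MF. A level is therefore relative to its own array, and levels of different genes are not compared because they come from different probes. A gene was called at a 2-fold difference. Where 1 side was not well above background the difference is a bound, written "at least". Medians take a bound at its own value, as if measured. By the scanner software's call, 16360 genes were above background on iHep, 17379 on PH and 14996 on MF. Probes printed about 10 times had a spot-to-spot SD of 0.099 on iHep, 0.11 on PH and 0.10 on MF (log2), which is technical error within an array and says nothing of differences between animals.

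Cell type markers went only partly with the labels. Albumin stood at a log2 level of -4.75 in iHep, 6.67 in PH and -5.20 in MF. Of 9 hepatocyte markers compared, 2 passed the 2-fold threshold upward in iHep against MF and none downward, namely the nuclear receptor Hnf4a (101-fold) and the cytochrome Cyp3a11 (at least 32.6-fold). All 10 were lower in iHep than in PH. All 10 fibroblast markers were lower in iHep than in MF, and 8 of 10 were lower in PH than in MF. The summed fibroblast signal relative to the array was 68.1 in iHep, 58.3 in PH and 612 in MF. The PH array also carried 7 of 7 pancreas markers above background (summed signal 232, against 0.281 in iHep and 0.216 in MF). Macrophage markers summed to 0.285 in iHep, 92.3 in PH and 79.9 in MF, with 7 of 7 above background in PH and in MF. Endothelial markers summed to 0.743 in iHep, 38.5 in PH and 1.23 in MF, stellate and smooth muscle markers to 0.311, 3.75 and 119, adipocyte markers to 22.2, 8.35 and 9.30, and skeletal muscle markers to 0.241, 0.357 and 9.73. The largest of the last 3 sums rest mainly on Acta2 and Tagln in MF, Fabp4 in iHep and Acta1 in MF. Other genes of these lists differed in direction. In PH over MF 2 of 7 stellate and smooth muscle markers were higher (Lrat at least 80.0-fold, Reln at least 2.73-fold) and 5 lower. Myod1 was 6.64-fold higher in iHep than in MF, where 2 skeletal muscle markers were lower. In iHep over PH 2 adipocyte markers were higher and 3 lower. The part of these cell types in the values below was not tested.

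Promoters are shown of 5 members. These were the 3 with the largest differences downward in iHep over MF and the 2 called upward in any comparison with MF. Imprints are written as DNA methylation on CpG pairs, which was not measured here. Whether a window shown holds the imprinted stretch of its gene was not tested. Each is 300 bases long, from RefSeq on GRCm38.p6, with every CpG in capitals. They are Meg3 (chr12:109540746-109541045, plus strand), Grb10 (chr11:12037371-12037670, minus strand), Plagl1 (chr10:13090582-13090881, plus strand), Mest (chr6:30737800-30738099, plus strand) and Peg3 (chr7:6730370-6730669, minus strand).
Meg3: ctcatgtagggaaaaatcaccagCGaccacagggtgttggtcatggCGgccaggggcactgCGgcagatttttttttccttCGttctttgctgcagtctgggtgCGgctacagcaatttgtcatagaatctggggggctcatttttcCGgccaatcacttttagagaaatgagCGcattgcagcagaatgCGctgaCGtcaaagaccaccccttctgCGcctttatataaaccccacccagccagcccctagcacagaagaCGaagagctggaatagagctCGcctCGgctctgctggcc
Grb10: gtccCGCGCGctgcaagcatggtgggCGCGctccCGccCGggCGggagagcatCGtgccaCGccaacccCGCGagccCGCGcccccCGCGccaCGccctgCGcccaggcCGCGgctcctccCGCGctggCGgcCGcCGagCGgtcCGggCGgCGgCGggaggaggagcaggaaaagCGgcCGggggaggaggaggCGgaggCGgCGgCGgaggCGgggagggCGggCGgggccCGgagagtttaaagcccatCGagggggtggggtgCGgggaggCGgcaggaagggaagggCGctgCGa
Plagl1: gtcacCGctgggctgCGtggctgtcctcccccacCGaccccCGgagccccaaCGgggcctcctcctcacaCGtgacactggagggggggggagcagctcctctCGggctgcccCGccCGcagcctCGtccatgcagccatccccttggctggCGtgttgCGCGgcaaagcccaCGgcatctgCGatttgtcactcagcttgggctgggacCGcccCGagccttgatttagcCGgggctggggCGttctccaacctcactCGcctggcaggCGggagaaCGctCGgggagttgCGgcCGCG
Mest: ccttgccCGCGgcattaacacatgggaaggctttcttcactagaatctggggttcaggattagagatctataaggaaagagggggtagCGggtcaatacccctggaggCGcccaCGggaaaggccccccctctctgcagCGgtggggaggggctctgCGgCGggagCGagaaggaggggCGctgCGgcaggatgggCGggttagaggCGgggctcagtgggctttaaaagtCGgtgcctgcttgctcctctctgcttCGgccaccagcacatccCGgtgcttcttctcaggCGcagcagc
Peg3: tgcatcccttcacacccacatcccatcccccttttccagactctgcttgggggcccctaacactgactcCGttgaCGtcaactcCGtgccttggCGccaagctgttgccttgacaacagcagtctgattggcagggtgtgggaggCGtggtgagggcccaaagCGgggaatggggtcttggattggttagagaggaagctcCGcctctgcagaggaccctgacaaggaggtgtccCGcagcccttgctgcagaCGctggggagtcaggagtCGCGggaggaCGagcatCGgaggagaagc

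These promoters held 13 CpG in Meg3, 45 in Grb10, 26 in Plagl1, 17 in Mest and 13 in Peg3, against a median of 7 over all 32851 promoters of that length, whose quartiles were 3 and 20. The Igf2r promoter held 34, Ndn 11 and Dlk1 9. Igf2 had 4 annotated starts with 2, 14, 24 and 7, and second starts of Meg3 and Grb10 held 1 and 9. Mest had 3 annotated starts with 8, 17 and 17. Its second start is the one shown, while the first is shown for Meg3, Grb10, Plagl1 and Peg3. The letters TGCCGC, the core recognised by the imprint-protecting zinc finger protein ZFP57 when methylated, were searched on both strands. They were present in 6 of the 16 promoters of the 9 members and in 11.6% of all promoters. The 6 belong to 5 genes, Grb10, Igf2, Meg3, Plagl1 and Mest, and 2 of them are Mest windows that overlap almost wholly. The letters AANATGGC, read by the factor YY1, were in 0 of the 16 windows on either strand and in 6.05% of all promoters.

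**Figure D1:**
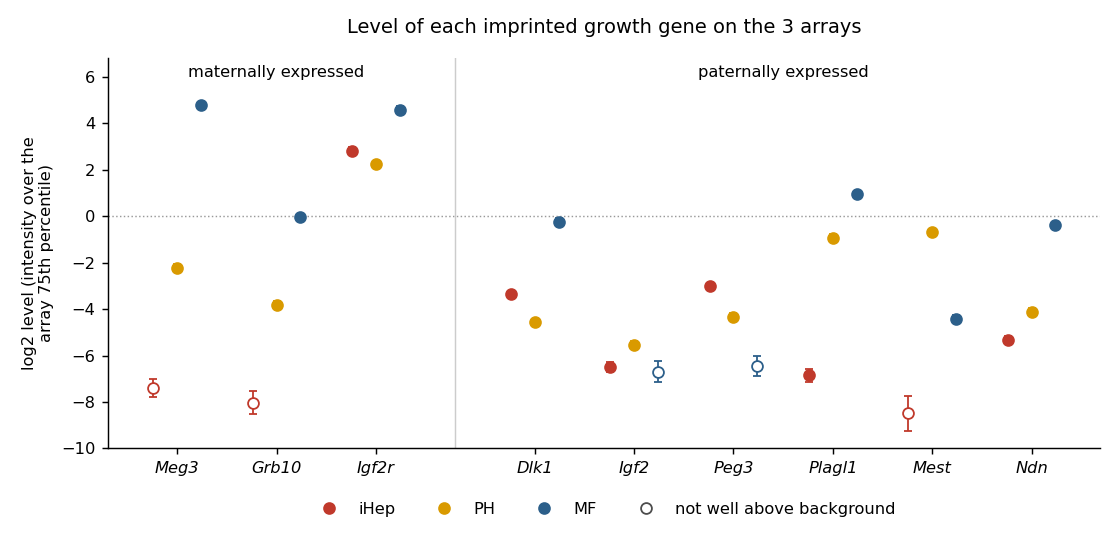
The log2 level of each gene relative to its array (vertical axis) is plotted for iHep, PH and MF, with 1 point per array, the scanner software's own error as the bar, and open points for probes not well above background. MF holds the top point for 6 of the 9 genes, PH for Mest and Igf2, and iHep for Peg3.

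The imprinted growth genes were first compared between iHep, given LV-3TF, and MF, given LV-NC. In iHep 7 of the 9 genes passed 2-fold downward and 1 upward, where 23.4% of all 17091 genes compared were lower and 19.9% higher. The median log2 difference of the 8 with a value was -4.02, against 0.02 over all genes. All 3 maternally expressed genes were lower. Their median of -7.29 is the Grb10 bound, since 2 of the 3 values are bounds. Each of the 3 was also lower in both comparisons with MF under normexp, quantile normalization, median scaling and the authors' values. Normexp moved the median difference of all genes by -0.72 in iHep over MF and -0.60 in PH over MF. Median scaling moved it by only 0.015 and 0.026, so lower calls kept under these 2 settings add little. Of the 6 paternally expressed genes 4 were lower, Peg3 was higher and Igf2 had no fold, with a median of -3.12 over the 5 with a value. The sizes moved with the processing, and those of Meg3 and Grb10 are bounds that depend on the floor of each setting. Meg3 was -10.06 with normexp and -9.73 with the mean of its probes (reported -12.10). With normexp Grb10 was -5.64 (reported -7.29) and Plagl1 -5.99 (reported -7.80, measured). The 10 fibroblast markers and all 6 macrophage markers compared were lower in iHep too, while only 2 of 9 hepatocyte markers were higher. The part of these cell types in the values was not tested. Fewer cells of a type and less RNA per cell cannot be told apart in such pools.

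Meg3, a long noncoding RNA studied as a tumour suppressor in human cells, had the largest difference of the set for iHep over MF. Its log2 level was -7.40 in iHep, where it was not well above background, -2.22 in PH and 4.77 in MF. In intensity the probe read 22.3 on iHep, 446.2 on PH and 14898 on MF. MF was thus far above both other arrays, PH lay between, and the iHep reading was not well above background. Meg3 was at least 4386-fold lower in iHep than in MF, and 128-fold lower in PH than in MF. The other 2 Meg3 probes were lower by at least 198-fold and at least 703-fold in iHep, so all 3 ran the same way.

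Grb10, an adaptor that binds and damps the insulin and IGF1 receptors, stood at a log2 level of -8.03 in iHep, again not well above background, -3.82 in PH and -0.03 in MF. It was at least 157-fold lower in iHep than in MF and 13.8-fold lower in PH than in MF. Igf2r, which carries IGF2 and mannose 6-phosphate-tagged enzymes to lysosomes, differed the least of the 3 maternally expressed genes and was well above background on every array. Its level was 2.82 ± 0.039 in iHep, 2.23 ± 0.039 in PH and 4.60 ± 0.044 in MF (SD over 9 spots of 1 array). The log2 difference was -1.77 for iHep over MF and -2.36 for PH over MF, each with a spot SD of 0.059, or 3.42-fold and 5.14-fold lower. Both are far larger than the spot error, which holds no error between animals.

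Among the paternally expressed genes, Plagl1, a zinc finger transcription factor that regulates other imprinted genes, had log2 levels of -6.85 in iHep, -0.92 in PH and 0.95 in MF on its brightest probe. That is 223-fold lower in iHep than in MF. The probes of Plagl1 did not run together. A second probe was at least 239-fold lower in iHep than in MF, while the other 2 were above background on all arrays and differed by 1.33-fold upward and 1.61-fold downward. Those 2 probes stood at -3.20 and -2.89 in iHep, -1.75 and -1.92 in PH, and -3.61 and -2.20 in MF. Which transcripts each pair detects was not tested, and the mean over the 4 probes gave a log2 difference of -4.17.

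Ndn, a growth-suppressing protein of the MAGE family, had log2 levels of -5.32 in iHep, -4.10 in PH and -0.40 in MF. MF was the highest, PH lay between and iHep was the lowest, and Ndn was 30.4-fold lower in iHep than in MF. Dlk1, a membrane protein with EGF repeats that marks fetal hepatoblasts and precursor cells, had levels of -3.35 in iHep, -4.57 in PH and -0.23 in MF. It was 8.71-fold lower in iHep than in MF, and its dimmer probe, above background in MF only, was at least 23.8-fold lower.

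Mest, an enzyme of the alpha/beta hydrolase fold made in growing mesoderm, was the member with iHep and PH called on opposite sides of MF. Its level was -8.48 in iHep (not well above background; SD 0.36 over 9 spots), -0.69 in PH (SD 0.087 over 10 spots) and -4.44 in MF (SD 0.21 over 10 spots). Mest was at least 7.36-fold lower in iHep than in MF and 13.5-fold higher in PH than in MF. The other 2 Mest probes were above background in PH alone, where they were at least 4.02-fold and at least 10.3-fold higher than in MF. They were dim in both iHep and MF, and with the mean of the 3 probes the lower call in iHep was lost (log2 difference -0.42).

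Peg3, a large zinc finger protein, was the single member higher in iHep than in MF. Its level was -3.02 in iHep, -4.32 in PH and -6.45 in MF, where the probe was not well above background. That made it at least 9.76-fold higher in iHep, a call that was lost with normexp background correction (log2 difference 0.23). Normexp here adds an offset of 50 intensity units before scaling, and MF was the dimmest array (75th percentile 544.3, against 3752 on iHep). The offset therefore raises genes dim in MF most, so the loss of the call does not decide whether Peg3 was higher. A second, dimmer probe was above background in iHep alone and gave at least 1.69-fold. Igf2 was dim on every array, at -6.50 in iHep, -5.55 in PH and -6.70 in MF, the last not well above background, and no fold was formed for iHep over MF.

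**Figure D2:**
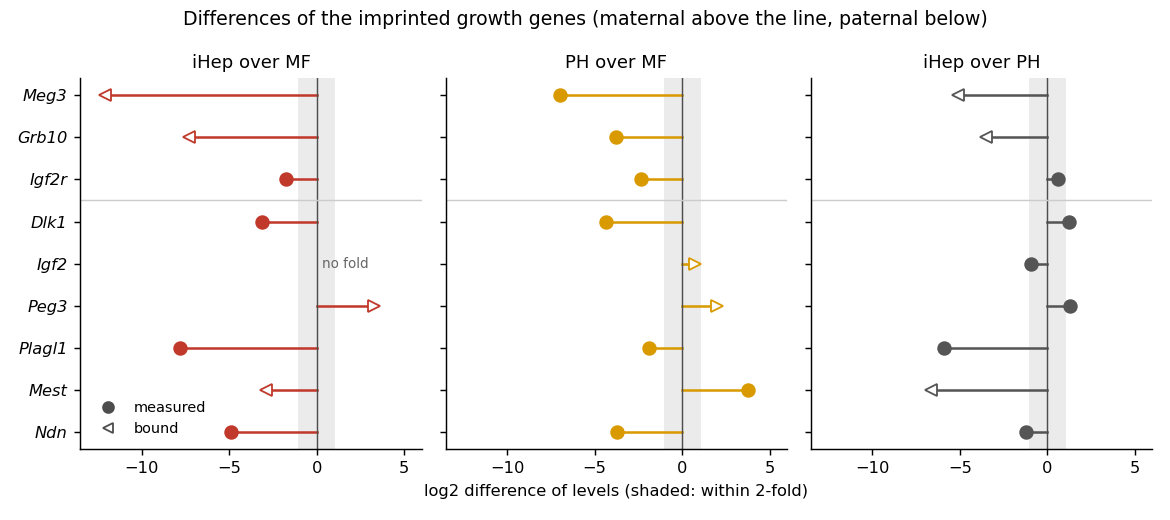
The log2 difference of each gene (horizontal axis) is shown in 3 panels, each set of arrays over MF and then iHep over PH, with circles for measured values, open triangles for bounds and grey shading for the 2-fold range. Every maternally expressed gene lies left of 0 in both comparisons with MF, while Peg3 lies right of 0 in all 3 and Mest in PH over MF alone.

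In PH set against MF, 6 of the 9 genes passed 2-fold downward and 2 upward, where 25.4% of 17722 genes were lower and 30.8% higher. The median log2 difference of the 9 was -2.36, against 0.08 over all genes. The 3 maternally expressed genes were again all lower, with a median of -3.79, and of the 6 paternally expressed ones 3 were lower and 2 higher. The paternal median of -0.56 was not stable, at -2.45 with normexp, -1.98 under quantile normalization, -2.98 in the authors' values and -3.71 over the 3 genes above background on all arrays. This comparison shares the MF array with the one before it. Dlk1 was 20.3-fold lower in PH, Ndn 13.1-fold lower and the brightest Plagl1 probe 3.66-fold lower. For Plagl1 the second probe was 2.69-fold lower, and the other pair were 3.62-fold and 1.22-fold higher, so the direction depended on the probe (mean of the 4 probes, -0.29 on the log2 scale). Besides Mest, Peg3 was higher in PH, by at least 3.96-fold, a call lost under quantile normalization (log2 difference 0.91), and no fold was formed with normexp or with the mean of its probes. Igf2 was at least 1.69-fold higher, short of the 2-fold threshold. The pancreas, macrophage and endothelial signal of the PH array stands beside these values, and its part in them was not tested.

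Between iHep and PH, which shared a scan, 5 of the 9 genes were lower in iHep and 2 higher, where 35.9% of 17926 genes were lower and 23.3% higher. The median log2 difference of the 9 was -1.22, against -0.31 over all genes. Mest was at least 99.5-fold lower in iHep, Plagl1 61.0-fold lower on its brightest probe, Meg3 at least 34.4-fold lower and Grb10 at least 11.4-fold lower. With the mean of the probes these log2 differences were -4.68 for Mest (reported -6.64), -3.88 for Plagl1 (reported -5.93) and -2.27 for Meg3 (reported -5.10). With normexp they were -4.93 for Mest, -4.26 for Plagl1, -3.34 for Meg3 and -2.33 for Grb10 (reported -3.51). Ndn was 2.33-fold lower in iHep, a call lost with quantile normalization (log2 difference -0.17) and also in the authors' values. Dlk1 was 2.33-fold higher in iHep on its brightest probe, but the mean of its probes gave -0.49 and normexp gave 0.62. Peg3 was 2.47-fold higher in iHep, a call lost with normexp (log2 difference 0.75). Igf2r and Igf2 stayed within 2-fold, with log2 differences of 0.59 and -0.95, and for Igf2 the sign turned under quantile normalization (0.20) and in the authors' values (0.19).

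**Figure D3:**
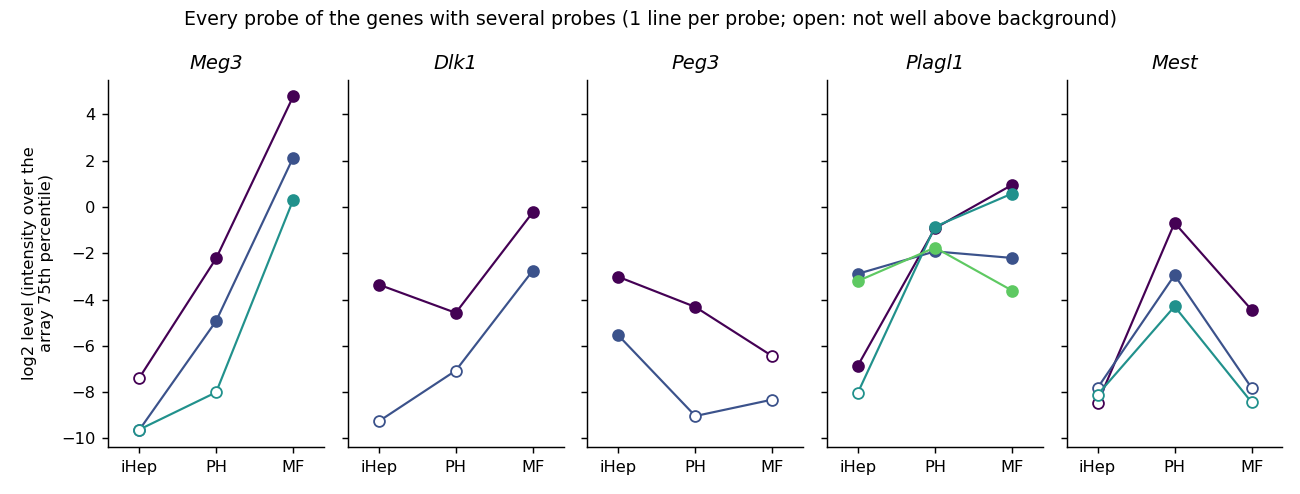
The log2 level relative to the array (vertical axis) is drawn for every probe of the 5 genes with several probes, across iHep, PH and MF, with open points not well above background. All 3 Meg3 lines climb to MF and the 3 Mest lines peak in PH, whereas the 4 Plagl1 lines form 2 pairs, 1 of which is lower in iHep and higher in MF than the other.

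Imprinted genes lie in clusters, and the neighbours of the members were read locus by locus from the same arrays. Over all genes 23.4% were lower in iHep than in MF, and 25.4% in PH than in MF. On chromosome 12 all 5 measured genes of the Dlk1 to Dio3 locus were lower in iHep than in MF, and all 5 were lower in PH than in MF. Beside Dlk1 and Meg3 these were Mirg, a noncoding RNA that hosts microRNAs, Rtl1, a gene derived from a retrotransposon, and Dio3, which inactivates thyroid hormone. Mirg had log2 levels of -6.86 in iHep, -5.82 in PH and 0.18 in MF, which is 131-fold lower in iHep and 63.9-fold lower in PH. In both comparisons with MF these 5 genes also read lower under normexp, quantile normalization, median scaling and the authors' values. As given above, lower readings kept under normexp and median scaling add little. Rtl1 was at least 6.89-fold lower in iHep and at least 5.11-fold lower in PH, and Dio3 was 7.61-fold and 4.33-fold lower. The locus thus held genes of both parental classes, and each of the 3 paternally expressed and 2 maternally expressed ones had its highest level in MF.

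Other loci were mixed. Magel2, the MAGE gene next to Ndn with no annotated gene between them, was 5.45-fold higher in iHep and 12.9-fold higher in PH than in MF, opposite to Ndn, and the iHep call was lost with normexp (log2 difference 0.38). In the same region Mkrn3 was 2.18-fold higher in iHep, though lower with normexp (-0.65), and 2.48-fold lower in PH, and the splicing gene Snrpn was within 2-fold in iHep and 2.25-fold lower in PH. Airn, the noncoding RNA that overlaps Igf2r and silences it on the paternal copy, was within 2-fold of MF on both arrays, by 1.18-fold and 1.19-fold. Over all genes 23.4% were lower and 19.9% higher in iHep over MF, and 25.4% and 30.8% in PH over MF. Of the 14 genes from Igf2 to Osbpl5 on chromosome 7, 6 were lower and 1 higher in iHep, and 6 were lower and 5 higher in PH. The cell cycle inhibitor Cdkn1c among them stood at -3.43 in iHep, -1.65 in PH and -0.87 in MF, or 5.90-fold lower in iHep. Ddc, the amino acid decarboxylase beside Grb10, was 6.26-fold lower in iHep and 102-fold higher in PH.

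**Figure D4:**
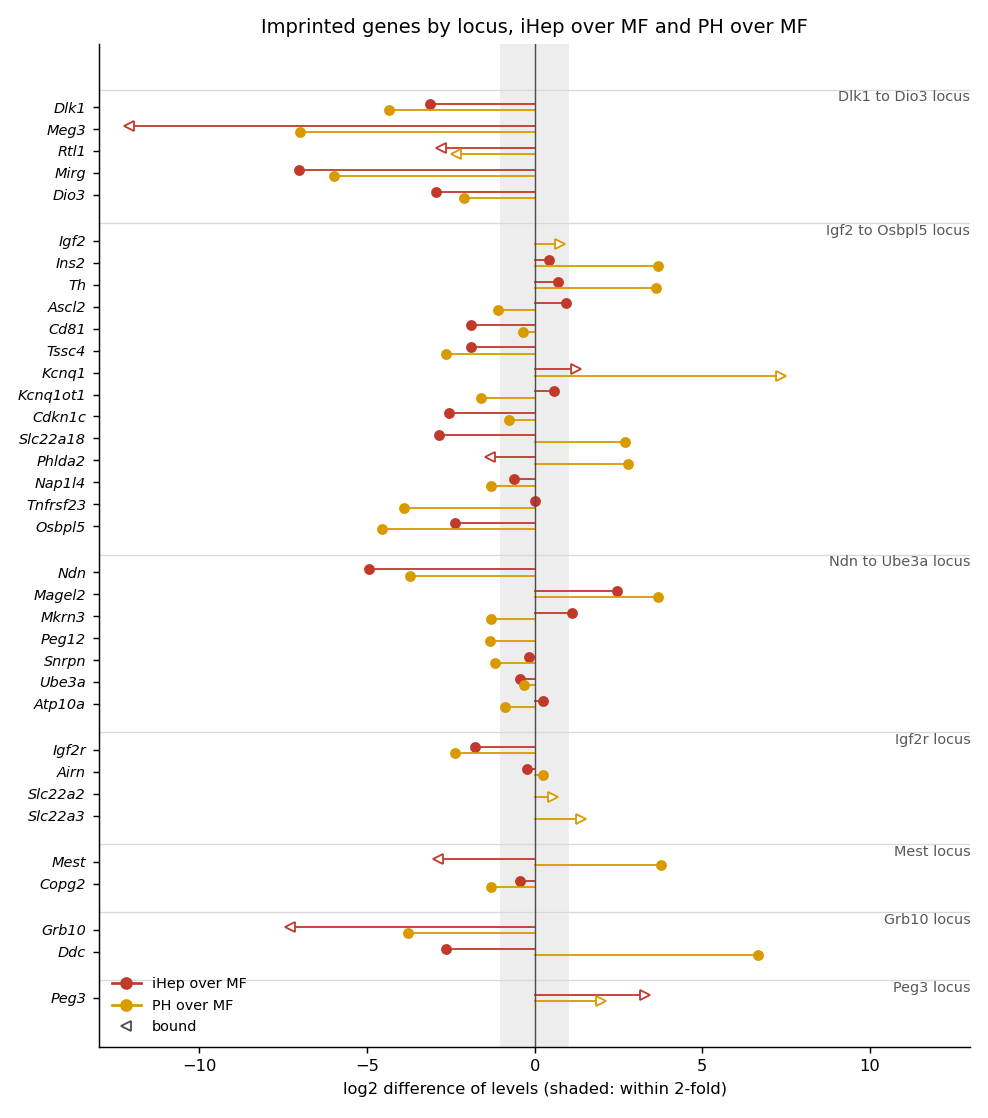
The log2 difference (horizontal axis) of each imprinted gene with a value is drawn by locus for iHep over MF and PH over MF, with open triangles for bounds and grey shading for the 2-fold range. The Dlk1 to Dio3 genes all lie left of the 2-fold range in both comparisons, while the Igf2 to Osbpl5 and Ndn to Ube3a loci hold genes on both sides.

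Across imprinted genes beyond the members, 24 of 26 paternally expressed and 24 of 25 maternally expressed genes had a matched probe. Several of them are known to be imprinted mainly in placenta or yolk sac. Over all genes 23.4% were lower and 19.9% higher in iHep over MF. The shares lower and higher were 25.4% and 30.8% in PH over MF, and 35.9% and 23.3% in iHep over PH. In iHep over MF, 10 of 21 maternally expressed genes compared were lower and 1 higher. The median log2 difference over the 19 with a value was -1.32, the bound of Phlda2 (-0.66 in the authors' values, -0.96 with median scaling). Zim1 and Klf14 were compared but had no value, and both read upward in iHep (2.21 and 1.44). The median of the readings of all 21 was -0.62. Of 23 paternally expressed genes 8 were lower and 4 higher, with a median of -0.26 over the 20 with a value. With normexp 10 of the 23 were lower and 1 higher, with a median of -1.25. Over all genes normexp also took lower calls from 4006 to 5192 and higher calls from 3395 to 2006. In PH over MF the maternally expressed genes were even, with 7 lower and 7 higher of 21, and of 22 paternally expressed genes 9 were lower and 5 higher. The medians in PH over MF were -0.31 for maternally and 0.20 for paternally expressed genes, the second of which turned sign with quantile normalization (-0.24), normexp (-0.41) and the authors' values (-1.23). In iHep over PH, 12 of 23 maternally expressed genes were lower and 4 higher (median -1.29 over 22), and 9 of 21 paternally expressed genes were lower and 5 higher (median -0.85 over 20). Both medians turned sign with quantile normalization (0.12 and 0.065) and in the authors' values (0.19 and 0.25).

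By name, Sgce, a sarcoglycan (164-fold lower), the noncoding RNA Peg13 (28.8-fold) and Dio3 were among the lowest of the paternally expressed genes in iHep over MF. Rtl1 and Nap1l5 (at least 5.79-fold lower) have bounds only and cannot be ranked with them, and Peg12, at -9.13 in iHep and -1.08 in MF, was not compared. The highest were the Polycomb protein Sfmbt2 (5.75-fold higher, but a log2 difference of 0.70 in the authors' values), Magel2 and the amino acid transporter Slc38a4 (at least 3.54-fold, with no fold under normexp). The maternally expressed genes lowest in iHep were Mirg, the creatine-synthesis enzyme Gatm (at least 21.1-fold lower) and Asb4 (10.3-fold, but a log2 difference of 0.64 in the authors' values). Of that list the potassium channel Kcnq1 alone was higher (at least 2.36-fold, with no fold under normexp), followed by Ascl2 (1.92-fold) and Th (1.63-fold) within the threshold. In PH, Slc38a4 was at least 567-fold higher than in MF, Kcnq1 at least 163-fold, Ddc 102-fold, Gatm 19.1-fold, insulin gene Ins2 12.9-fold and Th 12.3-fold. Ins1, a pancreas marker, was 13.1-fold higher in PH as well, and the part of pancreas RNA in the Ins2 value was not tested. The lowest in PH were Mirg, Impact (34.9-fold lower), Osbpl5 (23.3-fold), Tnfrsf23 (log2 difference -3.90), Sgce (7.45-fold) and Rtl1. Between iHep and PH, Ddc (640-fold), Slc38a4 (160-fold), Gatm (at least 404-fold), Kcnq1 (69.1-fold), Slc22a18 (47.0-fold) and Peg13 (24.7-fold) were lower in iHep, and Tnfrsf23 (15.2-fold), Impact (14.4-fold), Mkrn3 (5.40-fold), Kcnq1ot1 (4.54-fold), Osbpl5 (4.49-fold) and Ascl2 (4.05-fold) were higher. With normexp the Mkrn3 and Ascl2 calls were lost (log2 differences 0.83 and 0.60).

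The ligands and receptors through which these genes act were measured as well. Of 9 genes for IGF1 and its binding proteins, 6 were lower and none higher in iHep than in MF, with a median log2 difference of -3.0 over the 7 with a value. Igfbp2 was 449-fold lower and Igf1, the growth hormone-driven ligand made mainly by liver, 78.4-fold lower. Igf1 stood at -2.25 in iHep, 5.97 in PH and 4.05 in MF. In PH 5 of the 9 were higher and 3 lower than in MF, led by Igfbp1 (at least 5756-fold) and the circulating acid-labile subunit Igfals (at least 59.5-fold), with a median of 1.92. Igfbp6 was 9.48-fold and Igfbp3 5.44-fold lower in PH. Against PH, 7 of the 9 were lower in iHep and 1 higher, with a median of -4.74, where 35.9% of all genes were lower and 23.3% higher. The 1 higher, Igfbp6, was just past 2-fold and was not called with normexp or median scaling, and none of the 7 in the authors' values was higher. Among 16 receptors and signal carriers of the IGF and DLK1 ligands, 3 were higher and 5 lower in iHep than in MF (median -0.49), 4 higher and 7 lower in PH than in MF (median -0.39), and 4 higher and 4 lower in iHep than in PH (median -0.36). Over all genes 19.9% were higher and 23.4% lower in iHep over MF, and 30.8% and 25.4% in PH over MF. The receptor Igf1r stood at 0.51 in iHep, -2.01 in PH and 0.56 in MF, so it was within 2-fold of MF in iHep and 5.92-fold lower in PH. Notch3 was 123-fold lower in iHep, Mpdz at least 57.3-fold lower, and the Notch target Hey1 4.90-fold and the adaptor Irs2 3.42-fold higher.

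Of 10 genes for proteins that bind imprinted transcripts, 5 were higher and 1 lower in iHep than in MF (median 0.96). The 5 included all 3 IGF2 mRNA-binding proteins. Igf2bp1 stood at 1.33 in iHep, -7.70 in PH (not well above background) and -3.89 in MF, or 37.3-fold higher in iHep than in MF and at least 298-fold higher than in PH. Igf2bp3 was 3.92-fold and Igf2bp2 2.20-fold higher in iHep than in MF, and the Polycomb methyltransferase Ezh2 was 5.83-fold higher. The 1 lower was Jarid2, by 3.04-fold. Between iHep and PH, 6 of the 10 were higher in iHep and 3 lower (median 1.73). The 3 lower were Jarid2 (4.51-fold), Lin28a (3.99-fold) and Khsrp (2.25-fold). Of 9 compared, 2 were higher and 3 lower in PH than in MF (median -0.55), where Igf2bp3 was 28.0-fold and Igf2bp2 24.9-fold lower. Lin28a was 5.20-fold and Khsrp 3.85-fold higher in PH. Over all genes 19.9% were higher and 23.4% lower in iHep over MF. The shares higher and lower were 23.3% and 35.9% in iHep over PH, and 30.8% and 25.4% in PH over MF. Igf2 itself, whose mRNA gives these proteins their name, was near background throughout, as given above.

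Of 18 factors that read or maintain imprints, 5 were higher and 2 lower in iHep than in MF (median 0.56), where 19.9% of all genes were higher and 23.4% lower. With normexp 4 were higher and 4 lower, a setting that over all genes took higher calls from 3395 to 2006 and lower calls from 4006 to 5192. The de novo methyltransferase Dnmt3b was 6.84-fold higher, the chromatin remodeller Hells 6.33-fold, the hemimethylation reader Uhrf1 4.30-fold, the histone methyltransferase Setdb1 3.41-fold and Zfp57 2.53-fold, the last within 2-fold under normexp (log2 difference 0.79). Dnmt3l had a log2 difference of -2.81 and Dppa3 was at least 3.14-fold lower. The maintenance methyltransferase Dnmt1 was within 2-fold of MF in iHep, at 1.81-fold higher. In PH 5 of 18 were higher and 3 lower than in MF (median 0.14, but -0.31 with normexp, -0.087 with quantile normalization and -0.11 in the authors' values), with Ctcfl 10.6-fold and Tet1 4.78-fold higher and Uhrf1 8.62-fold and Hells 7.81-fold lower. In iHep over PH 7 were higher and 5 lower (median 0.63). Over all genes 30.8% were higher and 25.4% lower in PH over MF, and 23.3% and 35.9% in iHep over PH.

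Of 6 genes that tie these members to the postnatal silencing of fetal liver genes, 3 were higher and 1 lower in iHep than in MF (median 1.25, but 0.40 with normexp). Zhx2, a known repressor of H19, Afp and Gpc3 in mouse liver, was 4.31-fold higher, a call lost with normexp (log2 difference 0.53). The fetal serum protein gene Afp and the surface protein gene Cd24a were higher by 20.1-fold and 12.4-fold. Gpc3, a glypican, was 13.2-fold lower. In PH over MF 4 were higher and 1 lower (median 1.16, but -0.73 over the 3 genes in the authors' table), with Gpc3 8.73-fold higher and the lipase Lpl 4.68-fold lower. In iHep over PH 3 were higher and 1 lower (median 1.22). Over all genes 19.9% were higher and 23.4% lower in iHep over MF. The shares higher and lower were 30.8% and 25.4% in PH over MF, and 23.3% and 35.9% in iHep over PH.

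Genes with the pattern most like the 4 members above background on all arrays were sought among 13927 genes above background on all arrays, by distance in the plane of the log2 differences iHep minus MF and PH minus MF. Ndn lay nearest to Fkbp7 (distance 0.038), Vcl and Rcn3, and Dlk1 to Prnp (0.062), Adm and Dhrs3. Igf2r lay nearest to Lrrc14 (0.041), Hhipl1 and Spata6. Plagl1 was more isolated, with Soga1 (0.59), Pamr1 and Omd as its nearest genes. Its place rests on its brightest probe, which at -6.85 in iHep was near the floor of that array (-7.32). Other Plagl1 probes above background on all arrays lay elsewhere in the plane, at 0.41 and 1.86, and at -0.68 and 0.28. The neighbours of Plagl1 thus depend on the probe.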

How the data were processed

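The 3 one-colour arrays were grouped by sample title, 1 for each of iHep, PH and MF. Per the file headers, the deposited intensity values came from Agilent Feature Extraction 11.0.1.1, which subtracted background and detrended each array and did not normalize between arrays. The submitters' processing notes name version 9.1. The authors' value table holds deposited log2 values of 26049 probes (column medians 7.01 in iHep, 7.07 in PH and 7.02 in MF). Its scale, centring and normalization stay unknown, it correlated with the scanner values at 0.998, 0.994 and 0.997, and it served as an alternative.

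Control and outlier spots were left out (230, 383 and 190 of 43020 spots on iHep, PH and MF), spots of a probe were averaged, and no spot was saturated. Names came from matching unversioned accessions to a RefSeq gene table of GRCm38.p6, while the array design was annotated on mm9. Of 39181 probes, 27076 (69.1%) matched 1 symbol, 12105 matched none and 0 matched several. The brightest probe of a gene was used. For a bound, the dim side was set to its own reading or to the array's lowest level well above background (-7.32 on iHep, -6.89 on PH, -6.30 on MF), whichever was larger. The calling rule was checked on simulated data with large known changes and small noise, which does not measure its accuracy on these arrays.

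Members, gene lists and loci were chosen with earlier results of these data known, and support nothing by themselves. Named genes were all members with every probe and the 3 nearest in pattern. The rule for other names was the 3 highest and lowest of the lists of other imprinted genes. For each other list it was the 2 highest and lowest, and not every gene at these ranks is named. Snrpn, Airn, Cdkn1c, Nap1l5, Peg12, Dnmt1, Setdb1 and Zfp57 fall outside that rule and were picked with their values known. Alternatives were normexp (limma 3.58.1 in R 4.3.3, offset 50, run on median signals in place of the planned mean signals), quantile normalization, scaling to the median, the authors' values, use of probes above background on every array alone, no dim filter, the mean of probes, and a threshold of 4-fold or of 1.5-fold. On MF, the dimmest array, the normexp offset raises dim genes most, so higher calls over MF tend to be lost by the method itself. In iHep over MF normexp took higher calls over all genes from 3395 to 2006 and lower calls from 4006 to 5192. The number of arrays limits the precision.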

Additional observations from a re-analysis of the deposited data

How the results depend on the processing

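Of 54 counts of members under alternatives, 38 stayed within 1.5 times the reported count and 16 moved. With only probes above background on all arrays, which leaves 4 members, the number lower was 4 in iHep over MF (reported 7) and 2 in iHep over PH (reported 5), and none was higher in iHep over MF or PH over MF. The number higher in iHep over MF was 0 with normexp and in the authors' values (reported 1). The number higher in PH over MF was 1 with normexp, quantile normalization, the authors' values, the mean of probes and the 4-fold threshold (reported 2). The number higher in iHep over PH was 0 with normexp and at 4-fold, and 1 in the authors' values, with the mean of probes and with only probes above background on all arrays (reported 2). Peg3 has no probe in the authors' table. Signs turned for Dlk1 in iHep over PH with the mean of probes (-0.49, reported 1.22). The maternal median in iHep over PH turned over the 1 member left above background on all arrays (0.59, reported -3.51, the Grb10 bound). The paternal median in iHep over PH turned under quantile normalization (0.012, reported -1.08). Igf2 in iHep over PH turned under quantile normalization (0.20) and in the authors' values (0.19, reported -0.95, within 2-fold). The cause of these turns was not tested. Normexp moved the median of all genes by -0.72, -0.60 and -0.15 (log2; iHep over MF, PH over MF, iHep over PH), quantile normalization by 0.10, -0.31 and 0.50, and the authors' values by 0.08, -0.33 and 0.50. The higher share of calls over all genes was 45.9%, 54.8% and 39.3% as reported, 27.9%, 39.4% and 36.2% with normexp, 50.1%, 43.2% and 55.0% under quantile normalization, and 49.7%, 42.0% and 55.8% in the authors' values. No paired analysis was possible because each group has 1 array.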
